A study of Mus musculus with 2 samples.

Results

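Splice junctions across very long introns were read from a list of splice junctions in mouse lung RNA. A junction entered when its intron spanned at least 50000 bases, at least 10 reads crossed it in all, and at least 2 of those reads lay in each of the pair of tallies that the list keeps per junction, called R1 and R2. Of 447240 listed junctions, 2770 met the rule. Before the requirement on reads, 72341 listed junctions had introns of that length, and 77.4% of them rested on 1 read. Length and reads chose the members, so both are described here and not tested. The RNA came from lungs of C57BL/6J mice aged 8 weeks, with males and females pooled, and the study has 1 group of 2 libraries, with no treatment and no second group. The sequenced RNA was polyadenylated and above 200 nt, and the reads were stranded pairs of 76 nt each. Both libraries carry the same donor record, and the number of animals is not given, so the spread between them may be technical. With 1 group, no test between conditions was possible, and every value below is a description of these libraries.

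An intron is removed from a transcript by the spliceosome, which joins the donor site at its 5′ end to the acceptor site at its 3′ end. Most mouse introns are short, and very long ones are concentrated in genes for cell adhesion, signalling and transcription control, often directly after the first exon. RNA polymerase needs far longer to cross such an intron than a short one, and a read over the junction shows that both exons were joined in 1 RNA molecule. Tandem copies of a gene raise a separate difficulty, since a read from one copy can carry the same bases as the next copy along the chromosome.

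The sequences below show what a read over such a junction looks like. They are set out for named junctions described below, from the best read to 1 of the longest, and for pairs of neighbouring genes joined by a listed junction. Each line gives 30 bases of the upstream exon in lower case and 30 bases of the downstream exon in capitals, 5′ to 3′ on the strand of the gene, from the GENCODE M21 transcripts on mm10. The intron between the lower case and the capitals is 52804 bases long in App (chr16:85120943-85173746), 51868 in Igfbp7 (chr5:77784697-77836564), 53474 in Smad6 (chr9:63801864-63855337) and 162828 in Galnt18 (chr7:118759999-118922826), all on the minus strand. It is 188038 bases long in Lhfp (chr3:52847614-53035651) and 257465 in Cadm1 (chr9:47338589-47596053), both on the plus strand, and 367566 in Kcnq5 (chr1:21583696-21951261), on the minus strand. These positions are those of the junction list, on mm9, and no position was converted between builds.
App: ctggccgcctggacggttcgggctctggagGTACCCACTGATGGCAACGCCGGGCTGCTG
Igfbp7: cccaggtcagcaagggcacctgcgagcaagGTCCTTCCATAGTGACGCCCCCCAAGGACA
Smad6: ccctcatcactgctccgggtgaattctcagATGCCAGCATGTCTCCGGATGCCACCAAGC
Galnt18: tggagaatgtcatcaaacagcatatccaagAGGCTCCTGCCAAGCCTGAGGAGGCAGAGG
Lhfp: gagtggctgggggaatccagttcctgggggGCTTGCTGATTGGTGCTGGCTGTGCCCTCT
Cadm1: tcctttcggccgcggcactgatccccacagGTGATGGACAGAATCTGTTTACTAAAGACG
Kcnq5: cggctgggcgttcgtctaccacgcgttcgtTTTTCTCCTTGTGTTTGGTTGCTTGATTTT

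The second set shows, for 3 pairs of related neighbouring genes, the exon join at the same intron in both. A long-intron junction in the list ran from the donor of the first named gene to the acceptor of the other (chr3:94501027-94741129 and chr5:8740616-8864114 on the plus strand, chr8:95710018-95852276 on the minus strand, mm9). Intron 3 of Selenbp2 and of Selenbp1 had 60 of 60 flanking bases in common, intron 26 of Abcb1a and of Abcb1b had 58 of 60, and intron 5 of Ces1g and of Ces1d had 50 of 60.
Selenbp2: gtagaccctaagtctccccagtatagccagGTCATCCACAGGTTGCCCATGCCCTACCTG
Selenbp1: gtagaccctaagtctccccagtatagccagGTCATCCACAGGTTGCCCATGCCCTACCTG
Abcb1a: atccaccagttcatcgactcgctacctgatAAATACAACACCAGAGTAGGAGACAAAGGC
Abcb1b: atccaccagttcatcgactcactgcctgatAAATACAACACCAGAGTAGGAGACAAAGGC
Ces1g: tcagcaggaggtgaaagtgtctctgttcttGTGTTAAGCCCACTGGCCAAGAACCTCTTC
Ces1d: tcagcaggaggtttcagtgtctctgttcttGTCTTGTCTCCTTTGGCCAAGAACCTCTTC

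The lung identity of the RNA was plain from its markers: Scgb1a1, a secretory airway protein, was at 122856 and 132546 TPM in replicates 1 and 2, and Sftpc, surfactant protein C, at 22806 and 22331 TPM. The whole list held 18082458 reads in tally R1 and 17247857 in tally R2, and the long-intron junctions took 169735 and 193723 of them, 1.03% of all junction reads. The same requirement on reads was met by 131608 junctions of every length, of which the long ones were 2.1%. No label ties tally R1 or R2 to replicate 1 or 2, so tallies and library levels are given side by side and never joined.

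The junctions fell into a large set that fits known introns and a second set that does not. The intron size, chromosome and strand equalled those of annotated introns (GENCODE M21) of exactly 1 gene for 1525 junctions, 55.1% of all, in 1027 genes. A further 14 equalled introns of several genes, and 1231, or 44.4%, equalled none. A gene named this way is named by size and not by position. By comparison, 44 of 60262 junctions of 50000 bases or more that failed the requirement on reads and had both name flags at 0 equalled an annotated size, 0.073% (exact binomial 95% interval 0.0531 to 0.0980%). The list marks each junction with a flag A and a flag C, whose meanings no source used here explains: 1440 of 1469 junctions with flag A at 1 had a size match, against 99 of 1301 with flag A at 0. The comparison set was held to flag A at 0, so its low share is no chance rate for the named junctions. Introns matched to 1 gene had a median of 72733 bases and ranged up to 423386, whereas introns with no match had a median of 127746 and ranged up to 1223208. At 200000 bases or more, 50 of 377 junctions were named by 1 gene, and none of the 14 at 500000 or more.

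**Figure D1:**
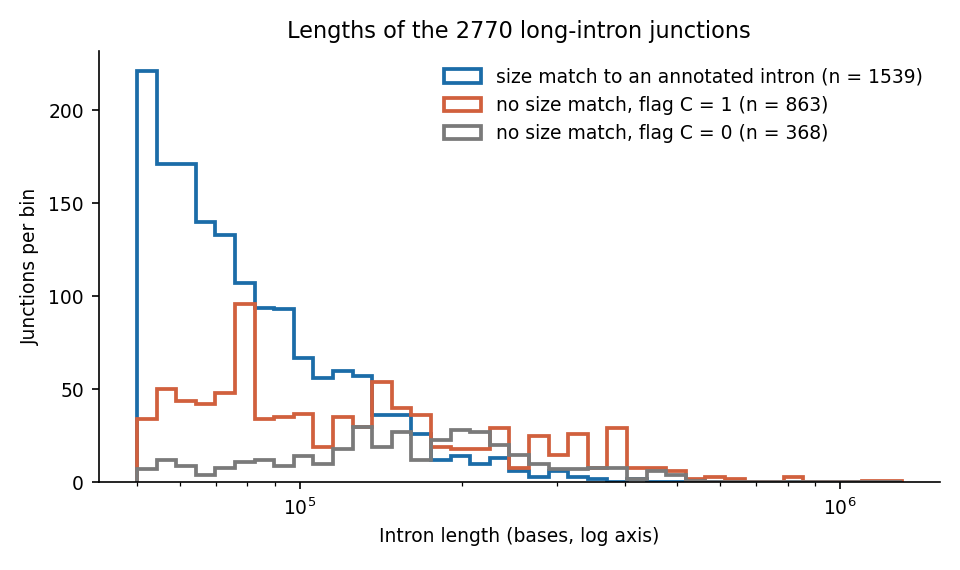
Number of junctions per bin of intron length (log axis) for junctions with a size match to an annotated intron, junctions with no match and flag C at 1, and junctions with no match and flag C at 0. Size-matched introns crowd toward 50000 bases, and from 300000 bases on most junctions (141 of 151) have no match.

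The 2 junctions with the most reads were the first introns of App and Igfbp7. App, the amyloid precursor protein gene, had 8668 reads in tally R1 and 21980 in tally R2 over its 52804-base intron. Igfbp7, which encodes a secreted insulin-like growth factor binding protein, had 7014 and 11723 reads in the same tallies. Both were higher in tally R2. App was at 479 and 555 TPM and Igfbp7 at 2228 and 4440 TPM in replicates 1 and 2. The gene level of Igfbp7 was unequal between the libraries, but no label shows which tally belongs to which library. In each gene the long first intron carried more reads than any other matched junction, with 8357 reads over the next highest in App and 3976 in Igfbp7.

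Of the 20 junctions with the most reads, 9 had a size match, including App and Igfbp7, and 11 had none. Raly, an RNA-binding protein gene, had 955 and 1794 reads in R1 and R2 over a 65720-base first intron, and that junction took 47.6% of the reads at its donor, since a 29458-base junction from the same donor had 3005 reads. Smad6, an inhibitor of BMP signalling, had 1076 and 1408 reads over 53474 bases. Cyyr1, which encodes a small cysteine- and tyrosine-rich membrane protein, had 1271 and 1080 reads over 79129 bases. Tmcc3, a gene for a membrane protein of the endoplasmic reticulum, had 756 and 1334 reads over 63318 bases. Galnt18, of the enzyme family that starts O-linked sugar chains, had 927 and 1076 reads over 162828 bases. Lhfp, of a tetraspan family, had 941 and 878 reads over 188038 bases. Plpp1, a phospholipid phosphatase gene, had 689 and 1056 reads over 50136 bases. The tallies of Lhfp and Cyyr1 were higher in R1 and those of the other five in R2. Galnt18 and Lhfp stand apart among these by the length of their introns.

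The 11 with no size match included 4 that joined sites of different genes, 3 of them from Selenbp2 to Selenbp1, described further on. The other one ran from 2610005L07Rik to 6820431F20Rik over 132186 bases, with 1600 reads in R1 and 888 in R2. A junction of 65235 bases into an acceptor of Scd2, a stearoyl-CoA desaturase gene, had 3860 and 2751 reads, 47.9% of the reads at that acceptor. One of 54607 bases into an acceptor of Chil3, a chitinase-like gene of macrophages, had 2775 and 2711 reads and 49.9%, and it was the only one of the 11 with flag A at 1. From a donor of Cyp4b1, a cytochrome P450 gene, a junction of 98104 bases had 1041 and 755 reads. No gene could be named at either end of the junction at chr15:74828048-74879214, with 1180 and 1515 reads, or of 3 more with flag C at 0.

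The longest introns that fit 1 gene mostly carried few reads. Arhgap6 headed them with 423386 bases (chrX:165234744-165658129), 3 reads in R1 and 11 in R2. Fam19a1, a secreted chemokine-like protein gene, had 7 and 3 reads over 407580 bases at 0.64 and 0.49 TPM in replicates 1 and 2. Kcnq5, a potassium channel gene, had 15 and 11 reads over 367566 bases at 2.20 and 1.64 TPM. Lsamp, a neural adhesion gene of the immunoglobulin family, had 8 and 4 reads over 355383 bases, and Sdk1, another adhesion gene of that family, had 2 and 8 over 340200 bases. A pair of scaffold genes among the longest was read more often. Magi1, a tight junction scaffold, had 42 and 36 reads over 339689 bases, and Ank3, which ties membrane proteins to the spectrin skeleton, had 82 and 79 reads over 324148 bases. The remaining 5 of the 12 longest, in Smyd3, Prkg1, Robo2, Negr1 and Hs6st2, spanned 289528 to 310880 bases, and Smyd3, a lysine methyltransferase gene, was the best read of them with 36 and 19.

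In all, 10 lists of genes by function were set beside these junctions. They hold many genes known for their size, and they were chosen with earlier results of these data known, so the counts describe them and support nothing. Of 12697 detected protein-coding genes, those that reached 1 TPM in each library, 974, or 7.67%, held a size-matched long-intron junction. Adhesion and tight junction genes came to 15 of 21 detected with 46 junctions, transcription and chromatin regulators to 32 of 49 with 62, cytoskeletal and anchoring genes to 19 of 28, and small GTPase regulators to 26 of 35. Kinases, phosphodiesterases and their anchors reached 29 of 34, the highest share of the 10 lists, and axon guidance genes 19 of 25. Growth factor, Wnt, BMP and TGF-beta genes came to 16 of 33, matrix genes to 18 of 38, RNA-binding regulators to 10 of 21, and channel, transporter and membrane traffic genes to 16 of 32.

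Among adhesion genes, Cadm1, which holds epithelial cells together, had the most reads, 481 in R1 and 674 in R2 over 257465 bases, at 100% of the reads at its acceptor. Cdh11, a mesenchymal cadherin, had 160 and 382 reads over 64365 bases. Cdh13, a cadherin without a transmembrane part, had 208 and 168 over 126991 bases. Ptprm, a receptor phosphatase that binds its own kind on the next cell, had 158 and 199 over 162585 bases. In the matrix list, Itga1, the alpha 1 subunit of a collagen receptor, had 228 and 301 reads over 52067 bases, and Fndc3b 251 and 199 over 64408 bases. Col4a3, a basement membrane collagen of the alveolus, had 159 and 180 reads over 54007 bases, and Fbn1, fibrillin, had 159 and 170 over 53799 bases. Tally R2 was the higher one in all of these but Cdh13 and Fndc3b.

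Signalling genes covered the widest range of reads. Below Smad6, the growth factor list held Tgfbr3, a co-receptor for TGF-beta, with 373 and 430 reads in R1 and R2 over 51116 bases, and Gpc3, a heparan sulphate proteoglycan, with 224 and 104 over 153662 bases. Fgf1, a fibroblast growth factor, had 124 and 106 over 59798 bases. Of the kinase list, Nek7, a kinase of mitosis and of the inflammasome, had 276 and 649 reads over 57766 bases, and Pde3a, a phosphodiesterase of cyclic AMP, 288 and 220 over 53823 bases. Plcb4, a phospholipase C, had 130 and 280 over 82099 bases, and Dapk1, a cell death kinase, 160 and 113 over 93634 bases. Arhgef3 led the GTPase list with 299 and 306 reads over 97204 bases. Elmo1, Dock8 and Dock1, which act together or alone as activators of Rac and Cdc42, had 196 and 334, 125 and 351, and 162 and 217 reads. Gpc3 leaned to R1 and Dock8, Nek7 and Plcb4 to R2 by more than 2-fold.

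Among the transcription factors, Tead1, the DNA-binding partner of YAP and TAZ, had 150 reads in R1 and 228 in R2 over 79657 bases. Nfib, a regulator of lung maturation, had 184 and 109 over 114576 bases, Zeb2 had 111 and 83 over 86911 bases, and Nr3c1, the glucocorticoid receptor, had 120 and 65 over 57217 bases. Tead1 was higher in R2 and the other 3 in R1. The splicing regulator Mbnl1 had 221 and 611 over 94170 bases, and Rbfox2 169 and 236 over 74926 bases. Rbms1 had 347 and 385 over 120218 bases but took 19.8% of the reads at its acceptor, while Rbms3 had 212 and 294 over 50273 bases. Limch1, Ablim1 and Add3, all linked to actin, had 219 and 215, 144 and 246, and 103 and 182 reads. Utrn, the dystrophin relative utrophin, had 134 and 85 over an 82977-base intron far inside the gene, number 50 of a transcript.

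Guidance and channel genes closed the lists. Ntn1, the secreted guidance cue netrin 1, had 287 reads in R1 and 377 in R2 over 107491 bases, Sema3e 133 and 148 over 117849 bases, and Nrp1, a receptor for semaphorins and VEGF, 99 and 93 over 55319 bases. Slit3 crossed 273314 bases with 131 and 107 reads. The transporter Slco3a1 had 216 and 186 reads over 144257 bases, and the potassium channel Kcnq1 157 and 171 over 62215 bases. Stxbp6, of vesicle fusion, had 73 and 152, and Fto, an RNA demethylase, 83 and 85. Among the junctions with the most reads picked from each list, that of Slit3 crossed the longest intron.

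Very long introns lay at the start of genes more often than short ones. Among the 1525 named junctions, 819 were the first intron of at least 1 transcript, 53.7% (exact binomial 95% interval 51.2 to 56.2%). Shares by length were taken over flag A junctions that matched 1 gene by size and met the same requirement on reads. Of 128838 shorter junctions that met it, 38626 were of this kind, so the short groups are a selected part. The share was 56.6% at 100000 bases or more and 51.1% at 50000 to 100000 bases. It was 41.8% at 10000 to 50000, 28.2% at 5000 to 10000 and 20.5% both at 1000 to 5000 and below 1000. The last intron of a transcript was 21.9% of the named junctions, against 24.2% of shorter ones. For 740 of 1525, or 48.5%, the junction crossed the longest annotated intron of its gene. These shares follow the annotation and the detection of each gene, and genes with many introns count many times among the short ones.

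**Figure D2:**
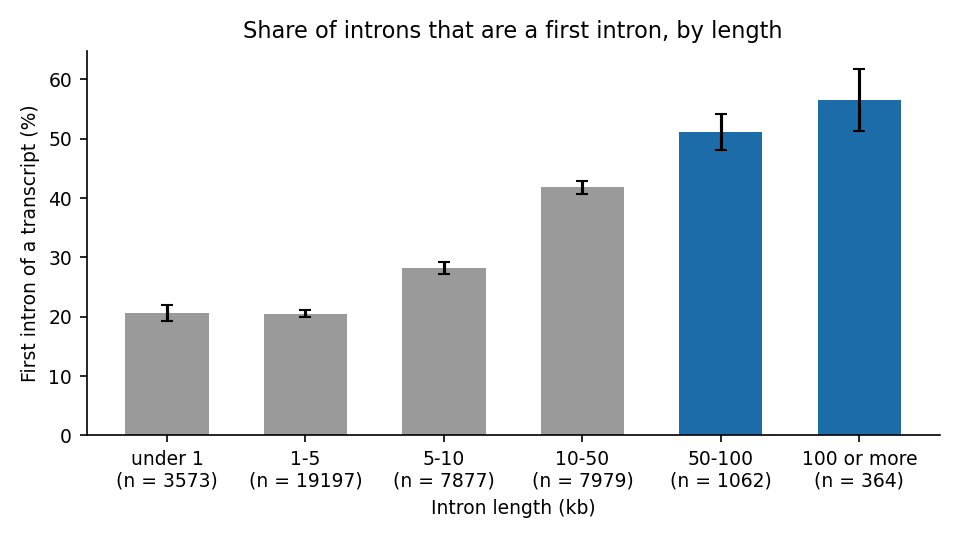
Percent of size-matched junctions with flag A at 1 that cross the first intron of at least 1 annotated transcript, by intron length, with exact binomial 95% intervals. The share is 20.5% below 5000 bases and reaches 56.6% at 100000 bases or more (blue bars, the long introns).

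Host genes had median levels somewhat below that of detected protein-coding genes. Of the 1027 genes, 1025 were quantified, and these had a median of 12.8 TPM in replicate 1 and 10.7 TPM in replicate 2, against 15.8 TPM as the median of all detected protein-coding genes over both libraries. Their mean levels ran from 0.21 to 3334 TPM, and 988 of them reached 1 TPM in both libraries, as every detected gene did. A host needed at least 10 reads over a long junction, so its level was in part set by the rule. Of 5300 annotated introns of 50000 bases or more in protein-coding genes, hosts or not, 1529, or 28.8%, had a junction of their size that met the rule. That share was 57.1% in genes at 50 TPM or more, 50.4% at 10 to 50, 41.2% at 5 to 10, 29.0% at 1 to 5 and 1.55% below 1 TPM. Protein-coding genes held 1504 of the 1525 named junctions, and lincRNA genes 6.

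Among junctions that met the rule, reads over a long intron were close to those over the rest of its gene. For 1385 junctions whose gene had at least 3 other matched junctions, the long one had a median of 1.15 times the median of the others, with an interquartile range of 0.579 to 2.26. The long junction needed at least 10 reads in all to enter and the others 1 in each tally, so the ratio leans upward. Among flag A junctions matched to 1 gene, where both lengths met the requirement on reads, it was 1.20 for long introns and 1.18 for shorter ones. Set against the mean of the others, the ratio for long introns was 0.849. In 179 of 1385, or 12.9%, the long intron had more reads than every other matched junction of the gene, against 9.80% of 35299 shorter junctions.

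The genes at the extremes of this ratio were picked after their values were seen. The first intron of Tmcc3 stood 161 times above the median of its other junctions, which was 13 reads, and above the highest of them, 686 reads. The first intron of Myo6, a myosin that moves toward the minus end of actin, had 435 reads in R1 and 1126 in R2 over 52386 bases, against a highest other junction of 261 reads. Eif2ak1, the haem-regulated kinase of translation, had 391 and 572 over 53854 bases, against 99. Il1rap, the accessory chain of the interleukin 1 receptor, had 198 and 192 over 52489 bases, against 92. At 14.9 and 13.9 TPM in replicates 1 and 2 Eif2ak1 was not an abundant gene, and only 3.73% of its intron was covered by contigs. At the low end, the 59574-base intron of Aldh1a1, a retinal dehydrogenase gene at 210 and 174 TPM, had 26 and 25 reads against a median of 1253. A 68794-base first intron of Rasgef1a had 7 and 8 reads and took 2.38% of the reads at its acceptor.

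Many long introns ended at an acceptor that another junction also used. Of the 1525 named junctions, 384, or 25.2%, had another junction at the donor and 566, or 37.1%, at the acceptor. Among flag A junctions matched to 1 gene, the donor and acceptor shares were 24.3 and 34.9% for long introns. They were 23.4 and 28.4% at 10000 to 50000 bases, and 16.5 and 17.9% for all introns under 50000 bases. Counted among named junctions only, 69 acceptors served 2 or more of them and 37 donors did. At 1 acceptor of Mbnl1 (chr3, position 60399515), 4 long introns met: 94170 bases with 221 reads in R1 and 611 in R2, 65789 bases with 51 and 26, 94499 bases with 14 and 46, and 122420 bases with 10 and 6. The first of them took 82.7% of the reads there and leaned to R2, while the 65789-base one took 7.65% and leaned to R1. In contrast, the deposited transcript levels put 6.78 ± 1.41% of the gene's TPM (SD, n = 2) on transcripts with the 94170-base intron and 28.0 ± 4.70% on those with the 65789-base one, so junction reads and transcript estimates order these introns differently. Sipa1l3, a Rap GTPase-activating protein gene, had 4 long introns at 1 acceptor with 134, 74, 15 and 12 reads, and the first took 56.3%. Shroom3, which constricts the apex of epithelial cells, had 3 with 219, 77 and 22 reads, and Ncald, a calcium sensor gene, 3 with 67, 63 and 12. At the donor side, Lrrc28 joined 1 donor to 3 long acceptors with 94, 19 and 10 reads, and Adgrl4, an endothelial adhesion receptor gene, split 359 and 275 reads between acceptors 52889 and 58439 bases away. For the 1452 named junctions with a transcript level, transcripts that contain the intron held a median of 89.2% of the gene's transcript TPM in replicate 1 and 91.0% in replicate 2.

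Some genes were crossed by a chain of long introns. Astn2, a membrane protein gene best known from neurons, had 8 named junctions of 59819 to 137502 bases with 10 to 140 reads each. Cdh13 had 7, of 82141 to 221705 bases, which sum to 914041 bases of intron. Pard3b, a cell polarity gene, and Rbms3, an RNA-binding protein gene, had 6 each, with 16 to 63 and 46 to 506 reads. In all, 711 genes had 1 named junction, 201 had 2 and 115 had 3 or more.

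RNA from inside the introns was measured by the contigs, stretches of continuous read coverage that the authors listed by strand. The median named intron had 24.2% of its bases in contigs of its own strand, with an interquartile range of 10.4 to 43.1%, and 0.0603% on the opposite strand. Coverage fell along the intron. The 10% of the intron nearest the donor was covered to 40.1% on average and the 10% nearest the acceptor to 18.2%, and the donor end was the higher one in 1323 of 1525 introns, or 86.8%, against 61.6% of introns of 10000 to 50000 bases. At 100000 bases or more the mean was 38.9% at the donor end and 12.2% at the acceptor end. At 1000 to 5000 bases both ends were at 55.6%. The 1149 introns with no junction inside them, on either strand, that met the requirement on reads showed the same slope. They had 36.6% near the donor and 13.8% near the acceptor. Junctions with fewer reads can still lie inside them. Hosts at 10 TPM or more had a median of 37.7% of the intron covered and hosts below 10 TPM 12.2%, and the donor end stood above the acceptor end in both, at 51.8 and 25.2% in the higher hosts and 24.7 and 8.88% in the lower ones.

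**Figure D3:**
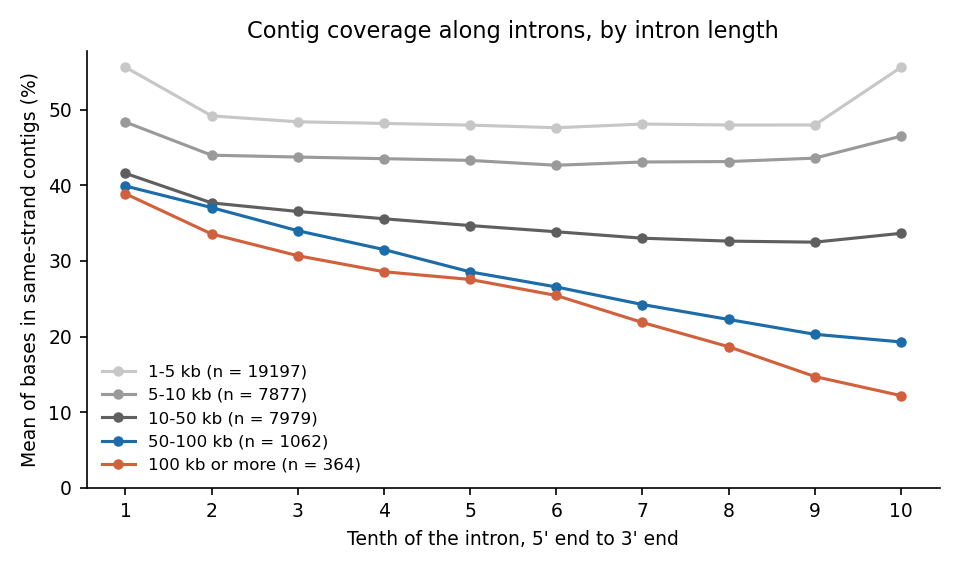
Mean percent of bases in same-strand contigs for each 10% of the intron, from the donor (left) to the acceptor (right), for flag A junctions matched to 1 gene and grouped by intron length. The 2 long groups slope down, from 38.9 to 12.2% in the longest and from 39.9 to 19.3% in the next, whereas introns under 10000 bases stay near level with raised ends.

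Single introns ranged from nearly full to nearly empty. Smad6 was covered to 97.5% and Ski, a repressor of TGF-beta signalling, to 94.6%, with 98.7% at the donor end and 98.0% at the acceptor end of Ski. Magi1 showed the slope most plainly among the longest, with 90.3% near the donor and 7.73% near the acceptor. Gpc3, at 152 and 139 TPM in replicates 1 and 2, had 3.15% of its 153662-base intron in contigs, and the Cdh13 intron named above had 4.96%. Only 2 of the 1525 named introns had no contig at all.

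The 1231 junctions with no size match behaved differently at their splice sites. They are split here by the list's flag C, whose meaning is likewise not explained. Of the 863 among them with flag C at 1, 81.8% had another junction at the donor and 81.9% at the acceptor, against 25.2 and 37.1% of named junctions. A junction shorter than 50000 bases stood at both ends of 58.7% of them (exact binomial 95% interval 55.4 to 62.1%), against 8.07% of named junctions (6.75 to 9.55%). They took a median of 42.5% of the reads at the donor and 42.9% at the acceptor, where the median named junction took 100% at each. They also gathered in few places: 553 of the 863, or 64.1%, lay in 35 groups of 5 or more overlapping junctions, against 15 of the 1525 named junctions in 2 groups. The largest groups, of 47 junctions each, lay at Tnxb, Stk19 and C4b on chromosome 17 and at Anxa11 and Plac9a on chromosome 14, followed by 43 at Srp54c on chromosome 12 and 42 at Tmem181a on chromosome 17. Chromosome 17 held 184 of the 1231 unmatched junctions and 242 of all 2770.

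**Figure D4:**
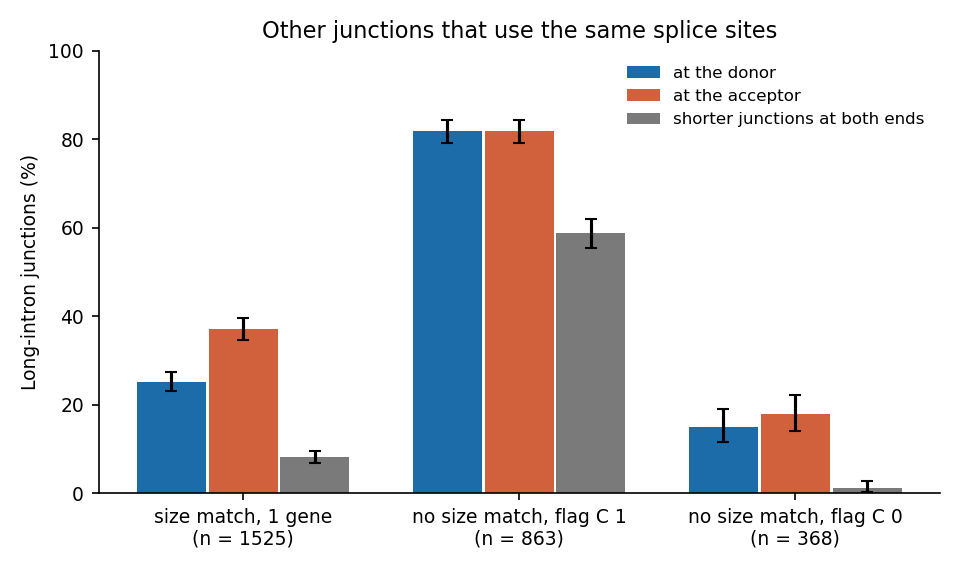
Percent of long-intron junctions with another junction at the same donor, at the same acceptor, or with shorter junctions at both ends, for named junctions, junctions with no size match and flag C at 1, and those with flag C at 0. Bars carry exact binomial 95% intervals, and the middle group stands at 81.8 and 81.9% for donor and acceptor.

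Both ends could be given a gene for 111 of these junctions, by size-matched flag A junctions at the same sites. In 83 of them the ends lay in different genes. They made 31 gene pairs. In 59 of the 83 the donor and the acceptor came from introns of the same number, and in 65 at least 55 of the 60 flanking bases were the same in both genes. The count depends on how many nearby junctions are asked for to name an end: with 5 in place of 2, 21 such junctions were found. Stk19 and C4b, which are not copies of each other, had 12 to 16 bases in common over 3 junctions, and the names of those ends are uncertain.

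Selenbp2 and Selenbp1, genes for selenium-binding proteins, gave the most reads. In all, 10 junctions ran from Selenbp2 into Selenbp1 over 240044 to 243232 bases, with 17917 reads, and 9 of them joined introns of the same number. The highest, at intron 3, had 3782 reads in tally R1 and 3819 in tally R2. At the same sites the own junctions of 200 bases had 6733 reads in Selenbp2 and 10058 in Selenbp1. Yet the gene levels were far apart, with 14.1 and 6.66 TPM for Selenbp2 and 816 and 806 TPM for Selenbp1 in replicates 1 and 2. The own junction of Selenbp2 had many reads where all 60 flanking bases matched Selenbp1, with 6733, 1697, 955 and 591 at introns 3, 10, 8 and 5, and fewer at the introns with the same number in both genes but not all bases in common, from 8 at intron 1 to 191 at intron 2. Another junction of 3131 bases from the donor of intron 1 had 310 reads. The part of read placement in these junctions was not tested.

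Other related genes were joined with fewer reads. Abcb1a and Abcb1b, the drug efflux pumps of mouse, were joined by 7 junctions of 117119 to 123499 bases with 473 reads and 55 to 60 identical bases, at 13.6 and 11.9 TPM for Abcb1a and 0.78 and 0.50 TPM for Abcb1b. The carboxylesterase Ces1d, at 799 and 617 TPM, received junctions from Ces1h, Ces1g and Ces1f with 627, 456 and 408 reads, where 1 junction from Ces1h and 1 from Ces1g had the same 162 and 89 reads. Cyp4f16 and Cyp4f37, of a cytochrome P450 family, shared 6 junctions with 437 reads and 57 to 60 identical bases. The longest such joins, up to 331147 bases, ran from Sirpb1c to Sirpb1a, of a family of immune receptors. Abcb1a, Ces1d and Cyp4f16 were each far above their partners, and the partner of Cyp4f16 was at 0.09 and 0.08 TPM, while the 3 Sirpb1 genes lay between 1.10 and 5.17 TPM.

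Some unmatched junctions had equal counts. Of 387 unmatched junctions with at least 50 reads, 53 shared both tallies exactly with another junction on the same strand of the same chromosome, against 0 of 719 size-matched junctions. Around Anxa11 on chromosome 14, junctions of 139776, 139932 and 279546 bases each had 130 reads in R1 and 90 in R2, and further sets there had 253 and 164, or 77 and 49. The pair with 43 and 19 reads on chromosome 3, by contrast, lay at separate places, near positions 63818307 and 92019885. Whether equal tallies stand for the same reads was not tested.

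The remaining 368 unmatched junctions had flag C at 0 and mostly shared no splice site. Another junction used the donor in 14.9% of them and the acceptor in 17.9%, and their median length was 159332 bases with a median of 18 reads. A few had very many reads. The junction at chr4:121870932-122132563 had 2914 reads in R1 and 2463 in R2 with no other junction at either end. The next, at chr3:94501411-94741874 across the span from Selenbp2 to Selenbp1, had 2105 and 2460 and did share its sites, with 2912 reads over a shorter junction at the donor and 5682 at the acceptor. That at chr12:34505011-34647728 had 1037 and 581, again with no other junction at either end. The longest junctions of all came from the set with flag C at 1: 3 junctions of 1223208, 1137652 and 792292 bases left 1 donor on chromosome 12 with the same 4 and 11 reads each, while 521 reads from that donor went to an acceptor 18847 bases away. None of the 12 longest junctions had a size match.

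Tallies R1 and R2 agreed within 2-fold for 73.2% of the 2770 junctions after scaling to the list totals. R2 was 2-fold or more above R1 in 364, or 13.1%, and R1 above R2 in 377, or 13.6%, where all 131608 junctions that met the same requirement gave 5.23% and 16.3%. With at least 100 reads, R2 led by 2-fold in 9.66% of 652 long-intron junctions and R1 in 3.53%, against 2.50% and 5.61% of 50986 shorter ones. The median log2 ratio of R2 to R1 was 0.13 for these long ones and −0.12 for the shorter. The rule used both tallies, so nothing is read from these shares. All long-intron reads together lay in R2 to 53.3%, against 48.8% for the whole list, and to 50.9% without App and Igfbp7. Tbl1xr1, a corepressor subunit, had the strongest lean to R2 among named junctions of 200 reads or more, with 47 reads in R1 and 179 in R2. Barx2, a homeobox gene, had the strongest lean to R1, with 173 and 53, at 13.4 TPM in replicate 1 and 2.76 TPM in replicate 2.

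**Figure D5:**
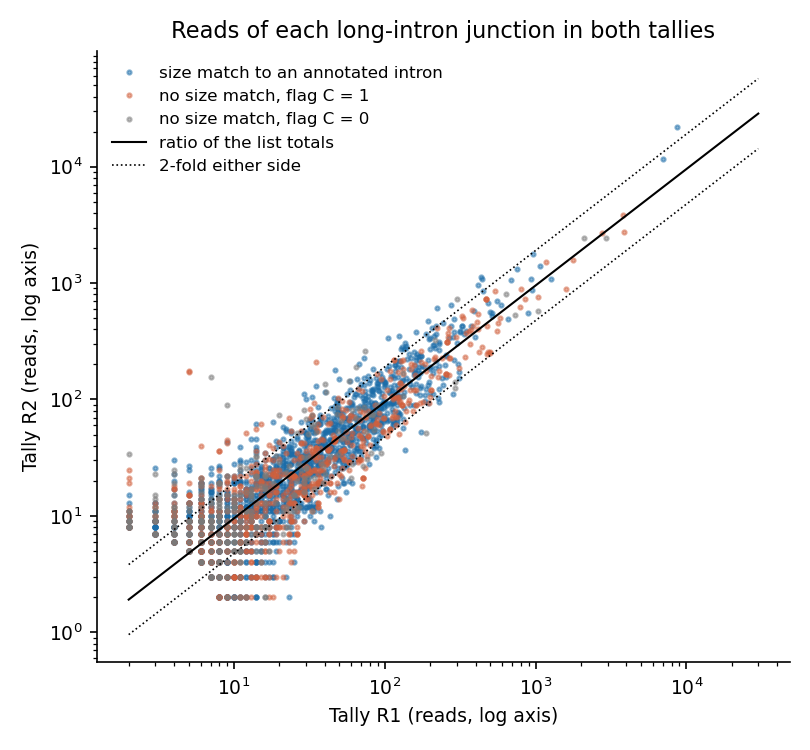
Reads of each of the 2770 junctions in tally R1 and tally R2 (log axes), with the ratio of the list totals (line) and 2-fold to either side (dotted). Most points (73.2%) lie inside the dotted lines, and App and Igfbp7 are the 2 points at the top right, App above the upper line.

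At the edge of the rule, the shortest introns taken were 50017 bases in Rabgap1l with 8 reads in R1 and 4 in R2, 50083 bases in Il34 with 34 and 58, 50087 bases in Sfmbt1 with 5 and 7, 50091 bases in an unnamed intron on chromosome 4 with 5 and 6, and 50091 bases again in Il34 with 11 and 13. The 5 longest not taken were 49979 bases in Xxylt1 with 174 and 123 reads, 49954 in Desi2 with 9 and 16, 49946 in Sppl3 with 207 and 350, 49942 in Rnf144a with 803 and 725, and 49880 in Ubtd1 with 36 and 32. Rnf144a was the best read of these 10. On reads, 116 junctions entered with exactly 10, and 150 with exactly 9 did not.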

How the data were processed

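The authors deposited a junction list and a contig list on mm9, without header. The junction list the authors deposited gives read counts per junction as tallies R1 and R2, whose sum is column 7, beside 2 flags. The contig list holds a signal value per contig as deposited by the authors. A further score, deposited by the authors without a header, stands beside each entry and was read here as a value of reproducibility. Per the file headers, deposited gene and transcript tables hold expected counts, TPM and FPKM, and a percent per transcript isoform, which was not used. These are on mm10 with GENCODE M4, per the deposited file lists. No source used here names the aligner or quantifier. The contig signal was not used, the contig score only in an alternative.

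Members were the list rows that met the rule. Host genes were named where intron size, chromosome and strand equalled introns of exactly 1 gene in GENCODE M21, since no mm9 annotation was used here. Ends were named by flag A junctions at the same position, assigned to a gene with at least 2 matched junctions within 50000 bases. Where 2 or more such junctions shared an end, 11855 of 11883 ends gave 1 gene. Other junctions at a site needed at least 1 read in each tally. Detected genes had at least 1 TPM in both libraries. Size naming was run on simulated introns drawn from the same annotation. That run could not show errors that arise between mm9 and mm10. Expected counts on genes summed to 48234745 and 44182836 in replicates 1 and 2. Intervals are Clopper-Pearson and cover counting error only. Python 3.11.15, pandas 2.3.3 and scipy 1.17.1 were used.

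Named junctions were the 20 with most reads, the 12 longest, those in 10 gene lists (the 4 with most reads each), the 5 nearest the length limit on each side and those that share a site. Members, lists and rules were chosen with earlier results of these data known. Alternatives varied the limits on length and reads, the match, the partners, the contigs and the unit.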

Additional observations from a re-analysis of the deposited data

How the results depend on the processing

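The rule took 2770 junctions, and would take 4709 at a length of 30000 bases and 1152 at 100000, and 1950 to 2063 with 1 tally alone. The share of long introns among junctions that met the requirement on reads was 2.10%, and 2.50% at 5 reads, 1.79% at 20 reads and 1.97% with 5 in each tally. Another junction at the donor or acceptor stood beside 59.9% of members, 52.7% when partners needed 2 reads in each tally and 78.8% with every listed junction. Members took 78.8% of the reads at the donor and 74.2% at the acceptor on average, 77.3 and 72.7% over all listed junctions, and 78.6 to 78.8% and 73.9 to 74.3% with 1 tally alone. The median named intron was covered to 24.2%, 16.0% with contigs of a score of at most 0.1 and 24.7% with both strands. The median host level was 3.70 on the log2(TPM + 1) scale, 3.34 with FPKM and 3.55 to 3.79 with 1 library. The ratio to the other introns was 1.15, 0.849 against their mean and 1.03 to 1.28 with 1 tally. Tally R2 held 53.3% of the reads and 50.9% without App and Igfbp7. Junctions between genes numbered 83, 50 with a window of 10000 bases and 21 with 5 nearby junctions. The fall of coverage was 21.9 percentage points, and 22.8 for introns without nested junctions that met the requirement on reads. Leaving out App and Igfbp7, the settings on junctions between genes and leaving out nested junctions were chosen after seeing the data. Host names rest on size alone. Junctions with a host name numbered 1525, 1522 within 1 base and 1461 with coding transcripts, and the names themselves were not compared. No paired analysis was possible because there is 1 group.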
